A study of Mus musculus with 12 samples.

Results

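Chromatin immunoprecipitation followed by sequencing placed ZFP57 and KAP1 on the genome of wild-type mouse embryonic stem cells, and the sites described here are those where a called peak of each protein met. A site is the union of peaks that overlapped by at least 1 bp across 4 peak lists, ZFP57 and KAP1 in the line A3 and the same proteins in the line E14. Sites were kept where at least 1 ZFP57 list and at least 1 KAP1 list, of either line, had a peak. This gave 211 sites of 12833 in all, which is 10.4% of the 2030 sites with ZFP57 and 1.92% of the 11014 sites with KAP1. The sites were chosen by the positions of the called peaks, so the overlap of the proteins is the rule and not a result.

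A3 cells are of strain 129X1/SvJ and E14 cells of strain 129P2/OlaHsd, both with a wild-type genotype. Both were grown without feeder cells in serum with leukaemia inhibitory factor, E14 with a larger share of serum and only A3 with non-essential amino acids. Each group was 1 library, so no value has an error between cultures, and line, strain, medium and library cannot be told apart. The series also holds A3 cells lacking Zfp57, inputs and H3K9me3 libraries, 8 libraries that were not analysed here. The lists give only positions, on the genome build mm9, as windows on a grid of 150 bp, with no height, read count or p-value. Depth is therefore unknown, and a missing peak means only that none was called. Coordinates below are mm9, counted from 1.

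ZFP57 belongs to the KRAB zinc finger proteins and binds the letters TGCCGC when the cytosine of their CpG is methylated. KRAB domains recruit KAP1 (TRIM28), a corepressor that brings the H3K9 methyltransferase SETDB1, heterochromatin protein and DNA methyltransferases to the bound DNA. At imprinting control regions this machinery is known to hold DNA methylation on 1 parental allele through the reprogramming of the early embryo. KAP1 itself is recruited by many KRAB zinc finger proteins, above all to retroviral elements, so KAP1 without ZFP57 is the common case in embryonic stem cells.

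To show what the motif looks like in its best known setting, the promoters of genes whose promoter is known to lie in a control region were taken from RefSeq (GRCm38.p6), matched by gene symbol. These bases are of another build than the peaks, so whether a called window covers them was not determined. Each run holds 250 bases before the start of transcription and 50 after it, 5′ to 3′ on the strand of the gene, with TGCCGC or its reverse complement GCGGCA in capitals. Nnat (neuronatin, a membrane proteolipid), Plagl1 (a zinc finger transcription factor), Nap1l5 (a nucleosome assembly protein family member inside an intron of Herc3) and Peg3 (a large zinc finger protein) each lie by name at 1 of the sites.
Nnat, chr2:157559828-157560127, plus strand: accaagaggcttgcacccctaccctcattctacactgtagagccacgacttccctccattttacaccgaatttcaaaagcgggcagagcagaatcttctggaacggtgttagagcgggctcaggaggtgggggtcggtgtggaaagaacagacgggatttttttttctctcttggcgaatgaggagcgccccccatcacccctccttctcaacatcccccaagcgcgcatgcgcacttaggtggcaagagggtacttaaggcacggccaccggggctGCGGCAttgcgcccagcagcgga
Plagl1, chr10:13090582-13090881, plus strand: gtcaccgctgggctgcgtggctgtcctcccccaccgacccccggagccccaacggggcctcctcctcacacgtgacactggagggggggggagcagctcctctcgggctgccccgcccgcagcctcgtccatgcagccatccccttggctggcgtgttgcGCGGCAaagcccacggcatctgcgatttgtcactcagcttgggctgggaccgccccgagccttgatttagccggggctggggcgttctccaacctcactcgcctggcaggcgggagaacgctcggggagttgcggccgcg
Nap1l5, chr6:58907077-58907376, minus strand: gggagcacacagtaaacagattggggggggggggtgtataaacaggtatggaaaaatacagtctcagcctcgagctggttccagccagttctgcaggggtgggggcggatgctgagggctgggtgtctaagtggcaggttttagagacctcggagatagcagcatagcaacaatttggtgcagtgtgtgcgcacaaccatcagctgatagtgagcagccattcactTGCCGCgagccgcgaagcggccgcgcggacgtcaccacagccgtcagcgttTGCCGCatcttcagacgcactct
Peg3, chr7:6730370-6730669, minus strand: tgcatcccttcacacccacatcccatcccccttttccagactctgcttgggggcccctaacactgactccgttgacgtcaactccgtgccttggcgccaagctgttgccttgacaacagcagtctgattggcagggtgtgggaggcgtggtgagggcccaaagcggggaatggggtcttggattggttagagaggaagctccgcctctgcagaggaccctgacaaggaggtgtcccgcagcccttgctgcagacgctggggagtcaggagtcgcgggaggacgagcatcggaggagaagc

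The Nap1l5 run holds 2 matches and those of Nnat and Plagl1 hold 1 each. No TGCCGC or GCGGCA is in the Peg3 window. Of 10 such genes looked up, 6 had at least 1 promoter with a match, and by promoter 7 of 15 did (46.7%), against 11.6% of all 32851 RefSeq promoters of that length. Mest gave 3 of the 15 promoters and Snrpn 4, so the 15 are not independent. The difference in base composition between these promoters and the rest was not taken into account.

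Known imprinted regions served as the landmark against which the other sites were read. Of 21 germline control regions listed by their approximate mm9 positions, 19 held a site, and these 19 held 20 of the 211 sites. Each of the 20 lay within 550 bp of its listed position, although a distance of 100 kb was allowed. The positions were listed with earlier results of these peaks known, so this closeness is no independent check of them. All 3 paternally methylated regions had sites: Rasgrf1, the Dlk1-Meg3 intergenic region and H19-Igf2. The last held 2 separate sites, chr7:149765851-149766450 and chr7:149767501-149768250. Of 18 maternally methylated regions 16 had one. Gnas exon 1A and Slc38a4 had none, and neither had the 2 secondary regions listed, Ndn-Magel2-Mkrn3 and Cdkn1c.

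Every site at an imprinted region had both proteins called in E14. In A3 both were called at 11 of the 20, namely Nnat, Nespas-Gnasxl, Peg10, Peg3, Snrpn, Inpp5f, Kcnq1ot1, Rasgrf1, Plagl1, the Dlk1-Meg3 region and Peg13. Mest and Zrsr1 had KAP1 but not ZFP57 called in A3. Neither protein was called in A3 at Mcts2, Nap1l5, Grb10, Igf2r-Airn, Impact or either H19-Igf2 site. No A3 peak of the missing protein lay within 10 kb at any of these 9 sites.

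The list of regions is not complete, and outside or inside imprinted regions means outside or inside those listed. A site outside can therefore still lie at an imprinted region. The other 191 sites, 90.5% of all, lay outside the listed regions. Of these, 27 were called in all lists (14.1%, 95% exact interval 9.53 to 19.9%), 57 in 3 lists (29.8%, 23.5 to 36.9%) and 107 in 2 (56.0%, 48.7 to 63.2%). At imprinted regions 11 of 20 were called in all lists (55.0%, 31.5 to 76.9%), and over the 12833 sites of the series 0.296% were. A site of all lists holds both proteins, so the rule keeps every one of them and fixes that the last share is lower. The intervals cover counting error only, and sites of 1 library are not replicates. Both proteins were called in E14 at 139 of the 191 sites and in A3 at 52. E14 alone had the pair at 112 sites and A3 alone at 25.

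**Figure D1:**
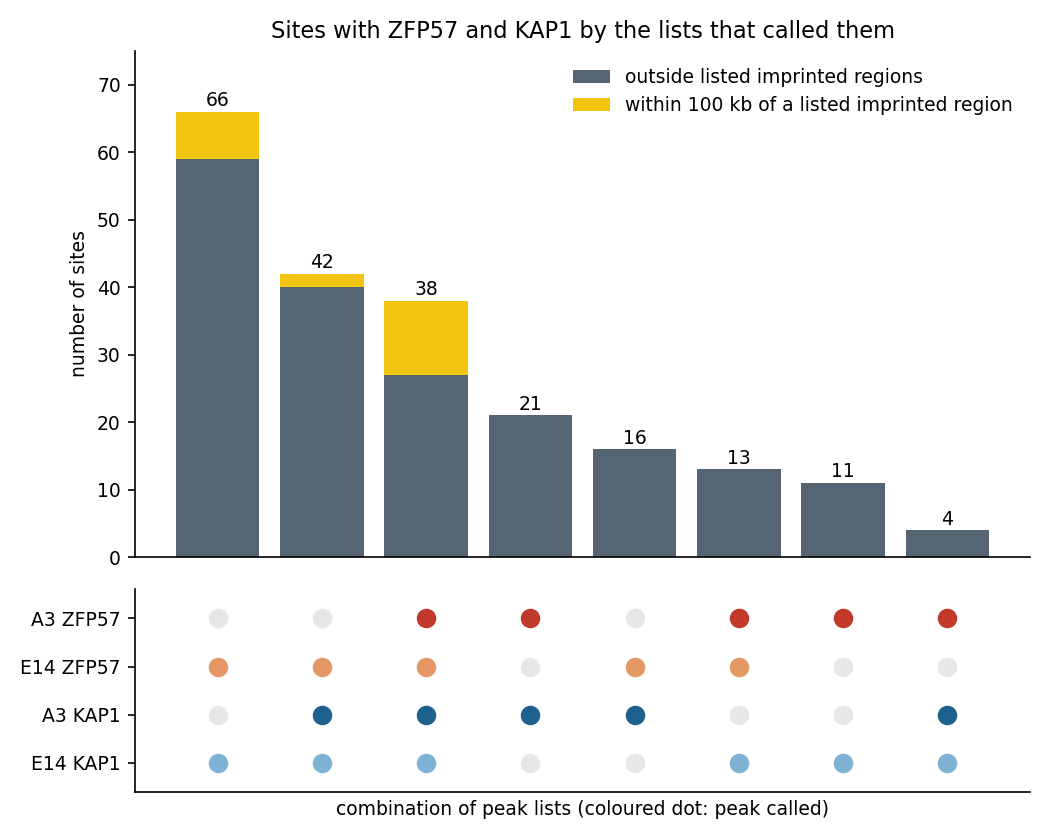
Number of sites (y axis) for each combination of peak lists, with a coloured dot below for each list that called the site; dark bars are sites outside the listed imprinted regions and yellow bars those within 100 kb of one. The most frequent combination was ZFP57 and KAP1 of E14 with 66 sites, and the 20 sites at imprinted regions all had both E14 lists.

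The pair came from 1 line at 164 of the 191 sites and from different lines at 27. Among the latter, 16 joined E14 ZFP57 to A3 KAP1 and 11 joined A3 ZFP57 to E14 KAP1. At those 27 sites no line showed both proteins, and none of the 20 sites at imprinted regions was of this kind. KAP1 was called in both lines at 71 of the 191 sites and ZFP57 in both at 40. Over all KAP1 sites of the series 5.57% were called for KAP1 in both lines, and over all ZFP57 sites 2.76% for ZFP57 in both. These shares rest on the same lists that chose the sites and are given as description.

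The lists entered the sites unevenly. Of the 602 E14 ZFP57 peaks 176 lay at the 211 sites (29.2%, 25.6 to 33.0%), and of the 1485 A3 ZFP57 peaks 87 did (5.86%, 4.72 to 7.18%). For KAP1 the counts were 175 of 1334 E14 peaks (13.1%, 11.4 to 15.0%) and 122 of 10295 A3 peaks (1.19%, 0.985 to 1.41%). The A3 KAP1 list was the longest by far and nevertheless missed 83 of the 191 outside sites. A near miss was rare: an A3 KAP1 peak lay within 10 kb of 7 of those 83 sites and within 1 kb of 0. A3 ZFP57 was missing at 115 outside sites, with a peak of that list within 10 kb at 1. E14 KAP1 was missing at 37, with a peak within 10 kb at 2, and E14 ZFP57 at 36, with none within 10 kb.

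Of the 27 sites called in all lists outside the listed regions, 26 were on autosomes and 1 on chromosome X. Chromosome 12 held 5 and chromosomes 4, 11 and 13 held 3 each. Their widths ran from 450 to 3450 bp with a median of 750 bp, and the plot of called peaks below shows each of them to scale.

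**Figure D2:**
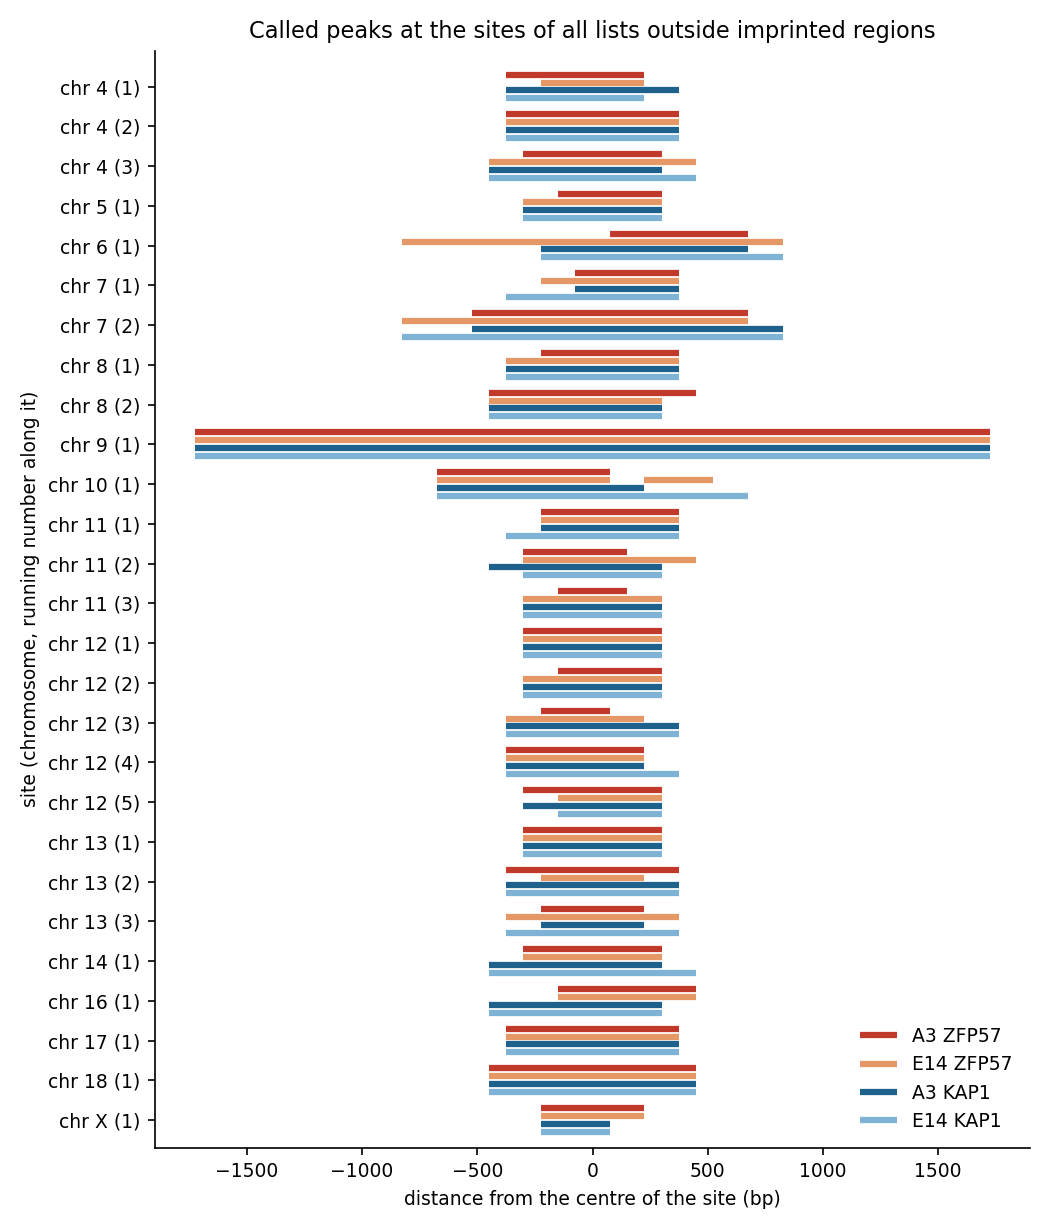
Called peaks at the 27 sites of all lists outside the listed imprinted regions: each row is 1 site, named by chromosome and running number, the x axis is the distance in bp from the centre of the site, and the 4 coloured lines are the peaks of the 4 lists. At 6 sites all lines have the same ends, and on chromosome 16 both ZFP57 peaks are shifted to the right of both KAP1 peaks.

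At 6 of the 27 sites the peaks of all lists had the same start and end. They were chr4:140379301-140380050, chr9:2999851-3003300, chr12:3589951-3590550, chr13:25142101-25142700, chr17:6324451-6325200 and chr18:74520001-74520900. The chromosome 9 site, of 3450 bp, was the widest of the 27, and the others were 600 to 900 bp wide. The chromosome 9 site lies at the centromere end of the assembled chromosome, and a second wide site followed after a gap of 18300 bp. Whether the inputs or the A3 cells lacking Zfp57 also have signal over the sites with identical ends was not tested.

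At other sites the lists differed by steps of the grid. The site chr8:125388751-125389650 had an A3 ZFP57 peak of 900 bp and peaks of 750 bp in the other lists. At chr5:135825601-135826200 the A3 ZFP57 peak was 450 bp and the others 600 bp. These 2 sites lie at the approximate positions of Cdh15 (a cadherin) and Fkbp6 (a germ cell chaperone cofactor), whose methylation is known to come from the oocyte. Both positions are from general knowledge, were not on the list of imprinted regions, and leave 189 sites outside when added to it.

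The longest of the remaining sites was chr7:134754301-134755950, where ZFP57 covered 1200 bp and KAP1 1350 bp in A3, while in E14 they covered 1500 and 1650 bp. Here both E14 peaks began 300 bp before both A3 peaks, and in each line the ZFP57 peak ended 150 bp before the KAP1 peak. The site chr6:149310001-149311650 was the other one of 1650 bp, the width of its E14 ZFP57 peak, against 1050 bp for E14 KAP1, 900 bp for A3 KAP1 and 600 bp for A3 ZFP57. At chr10:79201801-79203150 E14 ZFP57 had 2 peaks, of 750 and 300 bp, under 1 E14 KAP1 peak of 1350 bp. The A3 lists had only the left part, with 750 bp for ZFP57 and 900 bp for KAP1.

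At 2 sites the widths split by protein. At chr16:10187251-10188150 both ZFP57 peaks covered the last 600 bp and both KAP1 peaks the first 750 bp, with the same ends in A3 and E14. At chrX:120964801-120965250 both ZFP57 peaks were 450 bp and both KAP1 peaks the first 300 bp of them. At 2 other sites the widths split by line. Both A3 peaks were 450 bp and both E14 peaks 750 bp at chr13:113308201-113308950, and the order was turned at chr12:75226801-75227400, with 600 bp in A3 and 450 bp in E14.

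A3 ZFP57 alone covered the fewest bases at 10 of the 27 sites, 4 of them described above. Its peak was 300 bp at chr11:115302601-115303200, where the other lists had 600 bp. It was also 300 bp at chr12:22741951-22742700, where E14 ZFP57 had 600 bp and both KAP1 lists 750 bp. Peaks of 450 bp were called at chr12:22155301-22155900, with 600 bp in the other lists, and at chr11:19920451-19921350, with 600 to 750 bp in the others. The A3 ZFP57 peak was 600 bp at chr8:11608501-11609250, with 750 bp in the other lists, and at chr4:154346401-154347300, where A3 KAP1 had 750 bp and E14 had 900 bp for each protein.

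At the remaining 6 sites the widest peak was of a KAP1 list, in 1 case tied with A3 ZFP57. They were chr4:32980951-32981700, chr7:112767151-112767900, chr11:17108101-17108850, chr12:72342901-72343650, chr13:47106001-47106750 and chr14:68739301-68740200. Their E14 KAP1 peaks were 600 to 900 bp wide and their E14 ZFP57 peaks 450 to 600 bp.

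Across the 27 sites KAP1 peaks tended to be as wide as ZFP57 peaks or wider. In A3 the KAP1 peak was wider at 13 sites, equal at 12 and narrower at 2, with medians of 750 and 600 bp. In E14 it was wider at 10, equal at 14 and narrower at 3, again with medians of 750 and 600 bp. Between the lines, the E14 ZFP57 peak was the wider at 12 sites, equal at 11 and narrower at 4, and the E14 KAP1 peak was wider at 9, equal at 15 and narrower at 3. The 11 imprinted sites of all lists had the other order for KAP1. There the A3 KAP1 peak was wider than the E14 one at 5 sites and never narrower, with medians of 1050 and 750 bp. Without counts, a wider peak cannot be read as more protein.

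Among sites of 3 lists, the combination without A3 ZFP57 was the largest outside imprinted regions, with 40 sites. Its widest members were chr5:130162651-130164450, chr17:6252901-6254100 and chr14:79060201-79061250. The first had a single E14 ZFP57 peak of 1800 bp that joined 2 KAP1 peaks of each line, 450 and 600 bp in A3 and 750 and 900 bp in E14. The second had peaks of 1200 bp for A3 KAP1, 900 bp for E14 ZFP57 and 1050 bp for E14 KAP1. The third had an A3 KAP1 peak of 1050 bp over E14 peaks of 600 bp each.

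The 13 sites without A3 KAP1 included the broadest of the whole set. The site chr1:87479101-87498150 had an A3 ZFP57 peak of 19050 bp and peaks of 18900 bp in both E14 lists. On chromosome 9, chr9:3021601-3033750 had an A3 ZFP57 peak of 9000 bp, and in E14 its ZFP57 peak was 8700 bp and its KAP1 peak 11850 bp. Whether the inputs or the A3 cells lacking Zfp57 also have signal over such broad sites, or over the narrower ones, was not tested. The next width, 750 bp, was shared by 3 sites. Of these chr9:35112601-35113350 and chr17:36621451-36622200 had 750 bp in each of their 3 lists, and chr12:3109651-3110400 had 750 bp for A3 ZFP57, 600 bp for E14 ZFP57 and 450 bp for E14 KAP1. Of all combinations these 13 sites had the largest share with the same start and end in all of their lists, at 8 (61.5%, 31.6 to 86.1%). Of the 42 sites without A3 ZFP57, 8 had this (interval 8.60 to 34.1%). The first interval also holds the share of the 16 sites with only E14 ZFP57 and A3 KAP1, 9 sites (56.25%). Both combinations of 3 lists share the E14 pair and differ in their A3 list. The part of peak width in their difference was not tested.

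Only 4 sites lacked E14 ZFP57 alone. At 3 of them, chr13:66538201-66538950, chr6:67613401-67614000 and chr14:91335151-91335750, the A3 ZFP57 peak had the minimum width in the lists, 300 bp, beneath an A3 KAP1 peak of 600 to 750 bp. At the other, chr15:37132801-37133250, all peaks were 450 bp.

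Sites of 2 lists made up the rest. The 59 outside sites called by the E14 pair alone were 300 to 1200 bp wide with a median of 600 bp, the widest being chr17:6492901-6494100 and chrX:73843651-73844700, with peaks of 1050 bp for both proteins. At the next width, 900 bp, there were 3 sites, among them chr8:87199801-87200700 with 600 bp for ZFP57 and 900 bp for KAP1. The A3 pair alone gave 21 sites of 300 to 1050 bp with a median of 600 bp, led by chr12:89330101-89331150 and chr2:87485101-87485850. Their A3 ZFP57 peaks were both 600 bp wide, with A3 KAP1 peaks of 1050 and 450 bp. A further 9 sites were 600 bp wide, among them chr1:33990451-33991050 with 600 bp for each protein.

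Of the sites whose proteins came from different lines, the 16 with E14 ZFP57 and A3 KAP1 had a median width of 450 bp, the lowest of all combinations. Widest were chr7:30516301-30517200, chr3:96292651-96293400 and chr11:97928551-97929300, with ZFP57 peaks of 450, 300 and 450 bp and KAP1 peaks of 750, 750 and 600 bp. The 11 with A3 ZFP57 and E14 KAP1 had a median of 600 bp. Their widest were 4 sites of 750 bp. Of these chr12:116790451-116791200 and chr13:68127601-68128350 had 600 bp in both lists, chrX:53519851-53520600 had 750 bp in both, and chrY:1266451-1267200 had 750 bp for ZFP57 and 600 bp for KAP1.

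How the peaks lay against each other was not part of the rule beyond 1 shared base. At all 211 sites a ZFP57 and a KAP1 peak overlapped directly, which follows from the rule. The grid makes 150 bp the smallest overlap possible. The largest overlap of a site had a median of 450 bp. In E14, 82 of 161 overlapping pairs had identical ends (50.9%), the ZFP57 peak lay inside the KAP1 peak in 40, the KAP1 peak inside the ZFP57 peak in 30, and 9 were staggered. In A3, 24 of 63 pairs were identical (38.1%), ZFP57 lay inside KAP1 in 30, KAP1 inside ZFP57 in 5, and 4 were staggered. Nesting of KAP1 inside ZFP57 thus made up 18.6% of the E14 and 7.94% of the A3 pairs.

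Midpoints coincided closely. Those of ZFP57 and KAP1 of the same line lay within 150 bp in 150 of 161 E14 pairs and 58 of 63 A3 pairs, and they were equal in 88 and 30 pairs. Outside imprinted regions the counts within 150 bp were 131 of 141 in E14 and 49 of 52 in A3, and at imprinted regions 19 of 20 and 9 of 11. Taking every ZFP57-KAP1 pair of a site, both lines included, 194 of 211 sites had all midpoints within 150 bp (91.9%, 87.4 to 95.2%). An offset is known only in steps of 75 bp, and peaks of 300 to 600 bp that overlap cannot lie far apart.

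**Figure D3:**
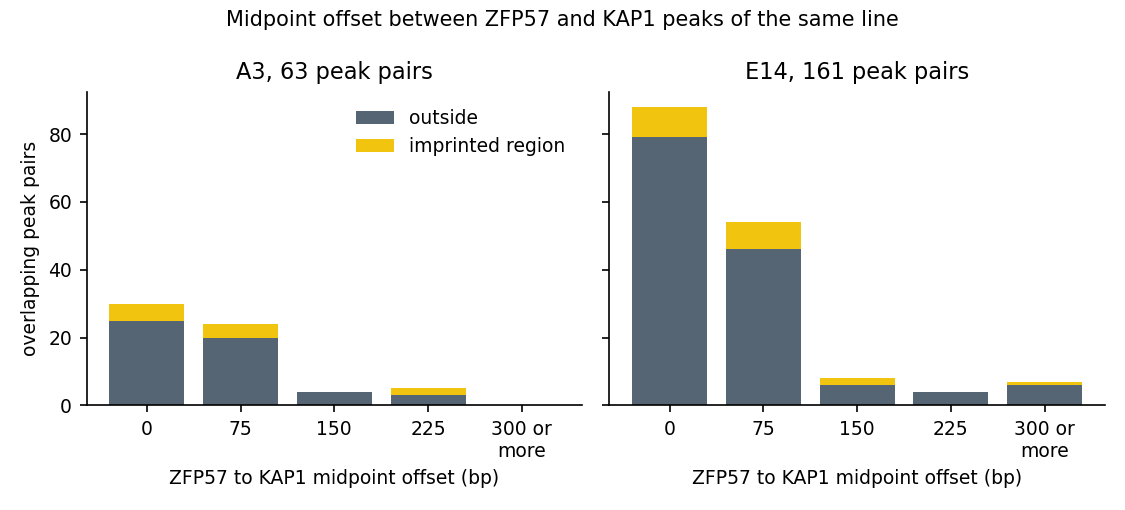
Overlapping ZFP57-KAP1 peak pairs of the same line (y axis) by the distance between their midpoints in bp (x axis, in grid steps), A3 on the left and E14 on the right; dark bars are pairs outside the listed imprinted regions, yellow bars pairs at them. Equal midpoints are the tallest bar in both lines, with 30 pairs in A3 and 88 in E14.

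The largest offsets belonged to sites of unusual extent. The chromosome 9 site chr9:3021601-3033750 had offsets of 1575 and 1725 bp between its ZFP57 and KAP1 midpoints, as its E14 KAP1 peak ran on to the right. Next came chr10:79201801-79203150, with up to 600 bp for its second E14 ZFP57 peak, and chr5:130162651-130164450 and the Mest site, with up to 525 bp each. At Mest the E14 ZFP57 midpoint lay at least 450 bp from every KAP1 midpoint.

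Sites of exactly 2 lists allowed identical ends to be compared with other pairs of lists. Of the 114 such sites 57 had the same start and end in both lists (50.0%, 40.5 to 59.5%). Where the lists came from 1 line, 43 of 87 did (49.4%, 38.5 to 60.4%), and where they came from different lines, 14 of 27 (51.9%, 31.9 to 71.3%). The second interval is too wide to show whether these 2 shares differ. Among the 529 KAP1 sites of both lines without ZFP57, 34.4% had identical ends (30.4 to 38.6%). All 5 sites with ZFP57 in both lines and no KAP1 had identical ends. Peak widths differ between the lists, and their part in these shares was not tested.

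Peaks at the sites were rarely the narrowest that the lists hold. The share at 300 bp was 13.8% of 87 A3 ZFP57 peaks and 9.66% of 176 E14 ZFP57 peaks, against 56.5% and 56.1% in the rest of those lists. For KAP1 it was 9.84% of 122 peaks in A3 and 9.71% of 175 in E14, against 13.5% and 39.3% in the rest. A wide peak has more bases that another can share, and the rule chose by overlap, so these shares are description. Outside imprinted regions the same order was seen within the A3 ZFP57 peaks, with 7.41% of 27 peaks at 300 bp where all lists called the site and 20.4% of 49 elsewhere.

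The rule's limit of 1 bp mattered for few peaks. Just inside were 6 sites with an overlap of 150 bp, 1 grid step, such as chr13:61027651-61028100 and chr9:13558351-13558800. Just outside, 1 E14 ZFP57 peak, chr8:87200701-87201000, touched the KAP1 peak of a site without sharing a base, and 3 A3 ZFP57 peaks lay 150 bp from a KAP1 peak. In all, 27 of the 1824 ZFP57 peaks without KAP1 had a KAP1 peak within 1 kb.

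By chromosome, the share of ZFP57 sites that held KAP1 varied around the 10.4% of the whole set. Chromosome X had the highest share, with 17 of 56 (30.4%, 18.8 to 44.1%), followed by chromosome 7 with 24 of 98 (24.5%, 16.4 to 34.2%). All 17 on X lay outside the listed regions, while 6 of the 24 on chromosome 7 were at imprinted ones. The X sites include groups of 5, 3 and 3 with gaps of at most 1 Mb, whereas the interval takes sites as independent. Chromosome 1 had the lowest share, 7 of 245 (2.86%, 1.16 to 5.80%), and chromosomes 2 and 14 had 11 of 202 (5.45%, 2.75 to 9.53%) and 10 of 180 (5.56%, 2.70 to 9.98%). Chromosomes 1, 2 and 14 are also those with the most ZFP57 sites. These shares pool the ZFP57 sites of both lines, whose lists entered the sites unevenly. The part of each line in them was not tested. Chromosome Y had 4 of 20, with 15 KAP1 sites in all. The proteins came only from different lines at 6 of the 21 sites on X and Y, and at 21 of the 170 outside sites on autosomes.

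**Figure D4:**
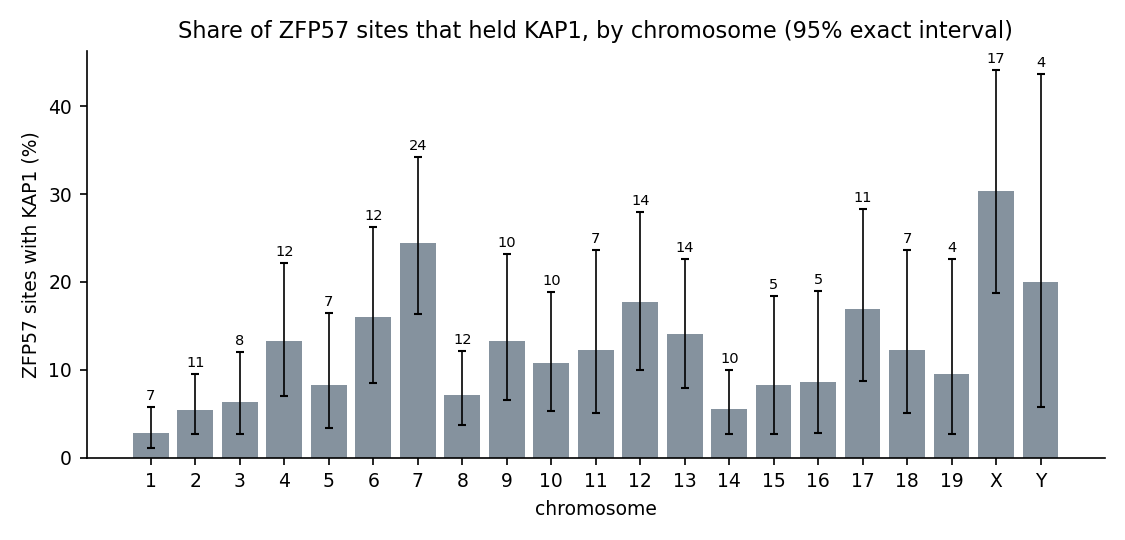
Share of ZFP57 sites that also held a KAP1 peak, in percent (y axis), for each chromosome (x axis), with the 95% exact interval as bars and the number of sites with both proteins above. Chromosome X, at 30.4%, and chromosome 7, at 24.5%, are highest and chromosome 1, at 2.86%, is lowest.

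Most sites stood alone. The median gap between neighbouring sites of a chromosome was 6838800 bp, while 66 of the 211 sites fell into 26 groups with gaps of at most 1 Mb. Only 3 groups had 4 sites or more, and all of them lay outside the listed regions. On chromosome 17, 6 sites lay between 6252901 and 6953250, a span of 700350 bp. All of them had the E14 pair, 3 also had A3 KAP1, and of these chr17:6324451-6325200 had A3 ZFP57 too. Its last 3 sites, chr17:6943351-6944100, chr17:6949201-6950100 and chr17:6952501-6953250, were 5100 and 2400 bp apart.

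On chromosome X 5 sites lay between 120427051 and 121094850, and they were of 5 different combinations. A further 3 lay between 122649601 and 122696100, all called by the E14 pair alone, with 40650 and 4200 bp between them. The 4 sites of chromosome Y spread over 1319550 bp from 1266451 to 2586000, and 2 of them joined A3 ZFP57 to E14 KAP1. Elsewhere, gaps of 20 kb or less separated the H19-Igf2 sites, at 1050 bp, the A3 sites chr2:87485101-87485850 and chr2:87495901-87496500, at 10050 bp, 2 of the chromosome X sites, at 15750 bp, and the chromosome 9 pair named above.

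**Figure D5:**
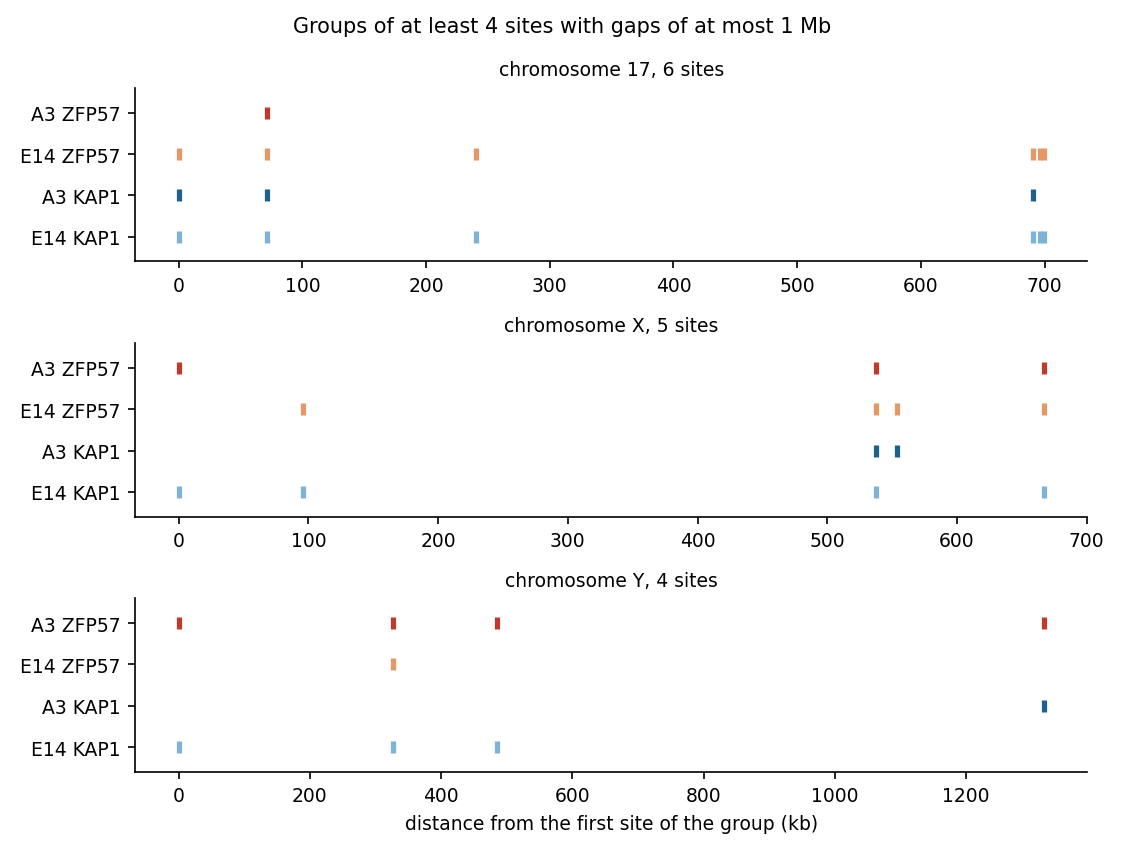
The 3 groups of at least 4 sites with gaps of at most 1 Mb: the x axis is the distance in kb from the first site of each group, the rows are the 4 peak lists, and a mark stands for a called peak. On chromosome 17 the E14 lists mark all 6 sites, whereas on chromosomes X and Y no list marks every site except A3 ZFP57 on Y.

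Clusters of KRAB zinc finger genes, whose bodies are known to carry KAP1, were set as 3 coarse windows on chromosomes 2, 4 and 13. They held 6 of the 211 sites (2.84%, 1.05 to 6.09%), beside 1.26% of all sites of the series, 1.21% of ZFP57 sites without KAP1 and 2.46% of KAP1 sites of both lines without ZFP57 (1.31 to 4.17%). The interval of the 211 sites holds all of these shares. Of the 6, 5 were on chromosome 13 and 1 on chromosome 4, none was called in all lists, and the chromosome 13 ones included chr13:66538201-66538950 and chr13:68127601-68128350.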

How the data were processed

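Peak calls from ZFP57 and KAP1 chromatin immunoprecipitation in wild-type A3 and E14 embryonic stem cells were used, 1 library per group. The authors deposited each list as positions, with the start of each peak counted from 1, on mm9 and on a grid of 150 bp, and with no signal value. Per the submitters' processing notes, the tools were bedtools 2.14.3-1, SAMtools 0.1.18, Bowtie 0.12.7 and CASAVA 1.8.2. Which caller made the peaks, at what threshold and with what input is not given in the sources used here. A peak too weak or too narrow for the caller is therefore missing without a trace.

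Overlapping or touching peaks were merged within each list, leaving 1485 A3 ZFP57, 10295 A3 KAP1, 602 E14 ZFP57 and 1334 E14 KAP1 peaks. Peaks of all lists sharing at least 1 bp were then joined into sites, so peaks of different lists that only touched were not joined. Site building was tested on simulated data. Shares carry 95% exact (Clopper-Pearson) intervals. No test between groups was made, as no group has a replicate. Sites were named by a fixed rule: all sites of 4 lists outside imprinted regions, the 3 widest of each other combination (ties at the third taken in genome order, and their number given), the smallest overlaps, the nearest peak outside, pairs under 20 kb apart, and imprinted sites by region. Other sites, such as those of the groups, were chosen after their values were seen. The imprinted regions, 23 approximate mm9 positions from general knowledge, count a site within 100 kb as inside. Members and lists were chosen with earlier results of these data known. Alternatives were the joining distance, a reciprocal overlap, unmerged lists, limits on peak width and distance, and autosomes only.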

Additional observations from a re-analysis of the deposited data

How the results depend on the processing

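Of 49 alternative values of 7 results, 46 stayed within the limit set for them and 3 did not. These limits were wide. For counts, 158 against the reported 191 sites outside imprinted regions still passed. A median width could move by up to 150 bp and a median offset by up to 75 bp. The median width of 600 bp became 450 bp for the part shared by all lists of a site, which passed. A share had to stay within the 95% interval of the reported one. The number of sites with both proteins, 211 as reported, ran from 178 with peaks of at least 450 bp only to 232 with peaks up to 1 kb apart joined. Sites of all lists ran from 34 to 38, sites outside imprinted regions from 158 to 212, and the share with both proteins in the same line from 86.2 to 88.9%. The 3 that moved all concern the share of sites with midpoints within 150 bp, reported as 91.9%. It was 81.0% when peaks up to 1 kb apart were joined, which admits sites whose peaks do not overlap, 43.1% with a limit of 0 bp and 97.6% with a limit of 300 bp. Some alternatives, such as autosomes only for results other than the number of sites, were chosen after seeing the data. No paired analysis was possible because each group is 1 library and the labels give no replicate numbers; for the same reason no replicate could be left out. The lists hold no read counts, so what depth limits is unknown.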

Other observations

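Of the 4 listed imprinted regions without a site, 2 had called peaks within 100 kb. At Cdkn1c, a cell cycle inhibitor whose secondary imprint is known to depend on Kcnq1ot1, an A3 KAP1 peak without ZFP57 lay over the listed position, at chr7:150645601-150646200. At Gnas exon 1A, the alternative first exon of the stimulatory G protein alpha subunit gene, the nearest peak was an E14 ZFP57 peak without KAP1, chr2:174125101-174125550, 27.4 kb from the listed position. It lay closer to the site of the neighbouring Nespas-Gnasxl region, chr2:174121051-174122100, than to exon 1A. No peak of any list was called within 100 kb of the listed positions of Slc38a4 (an amino acid transporter) and Ndn-Magel2-Mkrn3.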
